A study of Homo sapiens with 6 samples.

Results

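The set measured here, AP-1 and immediate early transcription factors, holds 10 genes. FOS, FOSB, FOSL1 and FOSL2 are of the FOS family, and JUN, JUNB and JUND of the JUN family. ATF3, EGR1 and IER3 complete the set, with IER3 counted as an immediate early gene and not as a transcription factor. The members were found by taking every probe set annotated to 1 of these gene symbols and to no other gene, which gave 18 of the 22215 probe sets tested. Each member was represented: 4 probe sets for JUN, 3 each for FOSL2 and JUND, 2 for EGR1 and 1 for each of the other genes. Per the labels, RNA came from HSC2, a human cell line established from an oral carcinoma. It was measured on 6 Affymetrix arrays with 1 sample per array. The labels describe 3 of the samples as cells stably expressing MALT1 (full-length, wild type) from a transfected cDNA, and the other 3 as cells with a stable transfection of vector alone (mock). All cells were grown in DMEM with serum, penicillin and streptomycin. The labels do not give the promoter of the construct, whether a line was a single clone or a pool, or whether replicates were cultured separately. A p-value here therefore reflects the spread among the arrays of a group, and that spread may be only technical. Its stated purpose was a list of MALT1-responsive genes. MALT1 is a paracaspase that acts with BCL10 and CARD scaffold proteins upstream of NF-kappaB and JNK.

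AP-1 is a family of paired transcription factors, each pair held together by a leucine zipper. JUN proteins pair with each other or with FOS proteins, whereas FOS proteins need a JUN partner to bind DNA, and which pair forms helps to decide which genes are switched on. Many members are immediate early genes, transcribed within minutes of a growth factor or stress signal without new protein synthesis and then shut off again. ERK signalling drives FOS and EGR1 through serum response elements and also stabilises the FOSL1 protein, and JNK phosphorylates JUN. In stratified epithelium and squamous carcinoma, AP-1 is known for its control of keratinocyte differentiation genes, matrix proteases and inflammatory cytokines.

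Several facts of the arrays touch the values below. The signal of the MALT1 probe sets went against the label. The one of the 3 MALT1 probe sets designed for a single transcript read 128, 124 and 107 on the arrays labelled MALT1, against 282, 242 and 236 on the mock arrays (log2 difference -1.08, adjusted p = 0.0022 by limma), so it was lower, and the groups were apart in the same direction on the other 2, of which 1 was called. Groups are therefore named by their labels throughout. Whether the transfected cDNA holds the bases that these probe sets bind was not checked, and RNA from a cDNA without them would be missed. The labelled cell type was also checked against marker genes. On the arrays labelled MALT1, 10 of 11 measured squamous epithelium markers were lower and 0 higher (0 higher also at an unadjusted p under 0.05), with summed signals of 15852 to 17742 against 47929 to 52349 on the mock arrays. Of 14 luminal breast epithelium markers 13 were higher and 0 lower (0 lower also unadjusted), with sums of 87420 to 96445 against 13346 to 13952, and PGR was dim on all arrays. The defining squamous keratins KRT5 (-2.47) and KRT14 (-1.81) were called lower but stayed above the dim level, and KRT16 was dim on all arrays labelled MALT1. Among the luminal markers, the keratin KRT19 read 12414 ± 567 on the arrays labelled MALT1 against 1.25 ± 0.07 on the mock arrays, and the trefoil gene TFF1 15491 ± 264 against 11.4 ± 2.47. The estrogen receptor gene ESR1 read 1765 ± 45.0 against 115 ± 4.65 on its brightest probe set, and the luminal factor GATA3 12863 ± 1303 against 191 ± 25.7. Of the 9 ESR1 probe sets, 3 were called higher and 0 lower. The arrays labelled MALT1 thus go against their labels in these markers and, as far as its probe sets detect it, in the MALT1 transcript. By the markers, their identity as HSC2 cells is in doubt. An effect of the transfected cDNA and a difference between cell populations cannot be told apart in any comparison below. Sums for 10 fibroblast markers were 160 to 284 against 172 to 225 (1 called), for 8 leukocyte markers 86.0 to 171 against 45.5 to 91.1 (1 called), and for 5 endothelial markers 33.5 to 44.6 against 30.2 to 52.5 (0 called by limma, and 0 at an unadjusted p under 0.05). Dim on all arrays were PDGFRA and POSTN of the fibroblast list, PTPRC, LYZ and NKG7 of the leukocyte list and CDH5, VWF and KDR of the endothelial list. These marker differences separate the same arrays as every comparison below, and their part in the members' values was not tested. In bulk RNA, fewer cells of a type and less RNA per cell cannot be told apart. MALT1 replicate 3 stood apart in its dim signals: 25.6% of its probe sets lay at or below the dim level, against 31.7% and 31.8% on the other arrays labelled MALT1 and 32.4% to 33.3% on the mock arrays. That level, 17.6, is the highest signal of the 3 Bacillus trp control probe sets on any array and was itself set by MALT1 replicate 3. The same array had the highest ratio of 3' to 5' control signal for ACTB (4.46, against 3.59 to 3.98 on the other arrays). For GAPDH the ratio was 1.12, against 0.95 to 1.05. What these ratios mean for the members was not tested.

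The members split in both directions. At an adjusted p under 0.05 by limma over all probe sets (called), the arrays labelled MALT1 were higher in 5 of the 18 probe sets, lower in 5, and without a call in 8. That is 27.8% in each direction, where 18.6% of all 22215 probe sets were called higher and 17.0% lower, or 35.6% in either direction. The groups did not overlap in 14 of the 18 probe sets, 8 with the arrays labelled MALT1 above and 6 with them below, where 49.7% of all probe sets did not overlap. The median log2 difference of the 18 probe sets was 0.24, against 0.08 over all probe sets. With only the brightest probe set of each gene, the median of the 10 members was -0.17, against 0.08 over all genes. By the brightest probe set of each gene, FOS, JUN and JUND were higher, FOSL1, JUNB, ATF3 and EGR1 were lower, and FOSB, FOSL2 and IER3 were not called. Among the 18 probe sets, 13 were above the dim level on at least 3 arrays.

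**Figure D1:**
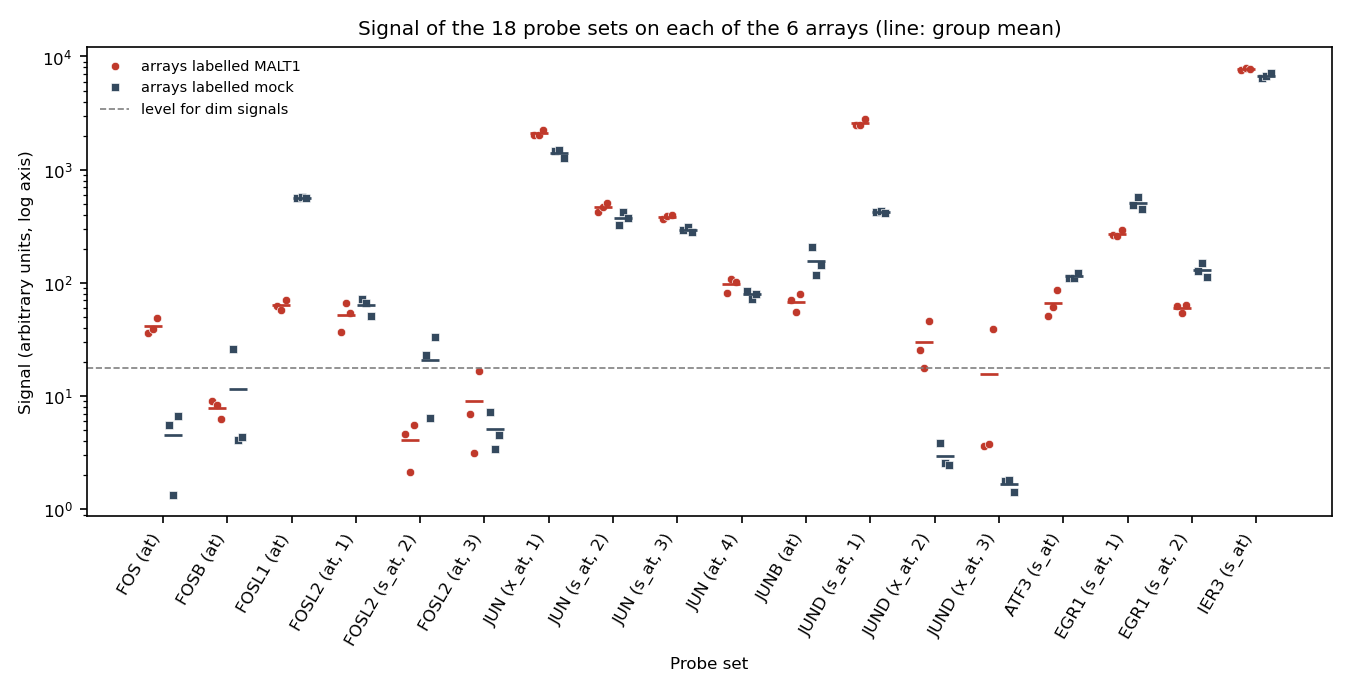
Signal of each of the 18 probe sets (log axis, arbitrary units) on the 3 arrays labelled MALT1 (red circles) and the 3 labelled mock (dark squares), with the group mean as a line and the level for dim signals, 17.6, dashed; numbers in the labels order the probe sets of a gene by brightness. FOSL1 is lower and the brightest JUND probe set higher on the arrays labelled MALT1 with no overlap, and FOS lies below the dashed line on all 3 mock arrays.

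Within the FOS family, FOSL1 fell most clearly. FOSL1 encodes FRA-1, a FOS protein without the strong activation domain of FOS itself that is abundant in many invasive carcinomas. Its probe set read 62.6, 58.2 and 70.0 on the arrays labelled MALT1, against 560, 574 and 568 on the mock arrays. Every array labelled MALT1 lay far below every mock array, and the spread within either group was small (63.6 ± 5.95 against 567 ± 7.32, mean ± SD, n = 3 each). The log2 difference was -3.14 ± 0.10 SE, with a 95% interval of -3.39 to -2.89 (adjusted p = 6.81e-05). Only 0.698% of all probe sets had a lower difference, so FOSL1 was among the larger falls on these arrays. It was called under all 12 alternatives run, with differences of -3.27 to -2.88.

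FOS, the founding partner of JUN in AP-1, moved the other way but at low signals. It read 36.0, 39.4 and 49.2 on the arrays labelled MALT1, against 5.55, 1.34 and 6.73 on the mock arrays. All 3 mock arrays were at or below the dim level and all 3 arrays labelled MALT1 above it. The change is therefore a bound, at least 2.34-fold higher, taken against 17.6 (adjusted p = 0.00667, measured means 41.6 ± 6.85 against 4.54 ± 2.83). The fitted log2 difference of 3.10 rests on how dim signals are treated and was 1.49 with 16 added to each signal in place of 1, still called (adjusted p = 0.000395). The RefSeq promoter table (GRCh38.p14) holds the 250 bases before the start of FOS, at chr14:75278578-75278827 on the plus strand. They are shown because FOS and EGR1, classic targets of the same growth factor signals, moved in opposite directions here. The capitals mark TGACG, the core of the cyclic AMP response element (CRE), here called the TGACG element, and the TATA box.
FOS: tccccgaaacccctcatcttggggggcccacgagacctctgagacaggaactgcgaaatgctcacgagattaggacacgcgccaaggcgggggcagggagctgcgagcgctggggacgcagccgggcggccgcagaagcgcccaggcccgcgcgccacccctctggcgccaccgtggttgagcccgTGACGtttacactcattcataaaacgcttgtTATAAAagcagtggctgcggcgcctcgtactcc

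FOSL2 and FOSB gave no call. FOSL2 encodes FRA-2, the other FOS protein without a strong activation domain. Its brightest probe set read 36.7, 66.2 and 54.2 on the arrays labelled MALT1, against 72.5, 67.1 and 51.2 on the mock arrays. The groups overlapped, and the interval of the log2 difference (-0.97 to 0.37) spans both a fall and a small rise (difference -0.30, adjusted p = 0.447). Its second probe set was at or below 17.6 on all arrays labelled MALT1 (4.66, 2.15 and 5.59) and above it on 2 of the 3 mock arrays (22.9, 6.47 and 33.3). The difference of -1.90 missed the threshold (unadjusted p = 0.0317, adjusted p = 0.0795). It was called with quantile normalization (adjusted p = 0.0456), with the replicate number as a block (adjusted p = 0.0313) and without mock replicate 2 (-2.55, adjusted p = 0.0161), the array with the lowest mock signal. The third probe set of FOSL2 was dim on all 6 arrays, so no fold is given. FOSB, another FOS protein with immediate early kinetics, read 9.02, 8.43 and 6.31 on the arrays labelled MALT1, against 26.2, 4.12 and 4.39 on the mock arrays. Only mock replicate 1 was above the dim level. The FOSB difference of -0.04 (95% interval -1.84 to 1.76) was 0.75 without that array (adjusted p = 0.0463), with all remaining signals dim.

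The 3 JUN family genes did not move together: JUND rose strongly, JUN a little, and JUNB fell. JUND is the JUN protein that is usually present in resting cells and can restrain growth. Its brightest probe set read 2474, 2465 and 2808 on the arrays labelled MALT1, against 425, 435 and 411 on the mock arrays. The groups were far apart, with means of 2582 ± 195 against 424 ± 11.7 (SD, n = 3 each). The log2 difference was 2.60 ± 0.09 SE, with a 95% interval of 2.36 to 2.84 (adjusted p = 8.09e-05), and it was called under all 12 alternatives (2.47 to 2.65). Of all probe sets, 97.0% had a lower difference. The brightest JUND probe set is of the s_at type and the others are of the x_at type, and both types can bind several transcripts. Those other JUND probe sets were dim on all mock arrays. The brighter of them read 25.4, 17.6 and 46.4 on the arrays labelled MALT1, against 3.85, 2.57 and 2.47 on the mock arrays, at least 1.56-fold higher with 2 of 3 arrays labelled MALT1 above the dim level (adjusted p = 0.00354). The dimmest read 3.64, 3.75 and 39.5, against 1.77, 1.81 and 1.42, so that only MALT1 replicate 3 was above the dim level (log2 difference 1.85, adjusted p = 0.19). Without that array all its signals were dim, and the difference of 0.82 was called (adjusted p = 0.0094).

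JUN, the partner of most FOS proteins and a target of JNK, rose by a small amount on 2 of its 4 probe sets. The brightest, an x_at set, read 2037, 2034 and 2224 on the arrays labelled MALT1, against 1457, 1503 and 1273 on the mock arrays. There the groups did not overlap, and the log2 difference was 0.57 ± 0.10 SE (95% interval 0.31 to 0.84, adjusted p = 0.0107). The third in brightness read 366, 388 and 401, against 293, 311 and 284, a log2 difference of 0.38 ± 0.09 SE (adjusted p = 0.0245). The second and the dimmest differed by 0.31 and 0.29 and were not called (adjusted p = 0.146 and 0.18), with intervals of -0.03 to 0.66 and -0.07 to 0.65. On the second the groups came close without overlapping (the lowest array labelled MALT1 and the highest mock array both read 425), and on the dimmest they overlapped. These small rises depend on few arrays and on the scaling. The call of the third probe set was lost after median centring (0.25, adjusted p = 0.119) and without any 1 of the 6 arrays (0.35 to 0.41, adjusted p = 0.0531 to 0.0782), whereas the brightest probe set stayed called in each of these (0.45 after centring).

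JUNB, which often opposes JUN in growth control and is itself an immediate early gene, fell. It read 70.6, 55.2 and 79.1 on the arrays labelled MALT1, against 207, 118 and 144 on the mock arrays. All arrays labelled MALT1 were below all mock arrays, although the mock arrays were widely spread (68.3 ± 12.2 against 156 ± 45.8). The log2 difference was -1.16 ± 0.26 SE, with a 95% interval of -1.81 to -0.51 (adjusted p = 0.0205). The call was lost without MALT1 replicate 1 (adjusted p = 0.059), MALT1 replicate 2 (0.0628) or mock replicate 3 (0.0579), at differences of -1.19, -1.02 and -1.20.

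The promoters of JUND and JUN are shown because their genes, with that of FOS, are the members that rose. Both lie on the minus strand of GRCh38.p14, JUND at chr19:18281623-18281872 and JUN at chr1:58784048-58784297, each ending at the base before the RefSeq start. Capitals mark the complete CRE, TGACGTCA, in JUND, its variant TGACATCA in JUN, and the TGACG element read on either strand.
JUND: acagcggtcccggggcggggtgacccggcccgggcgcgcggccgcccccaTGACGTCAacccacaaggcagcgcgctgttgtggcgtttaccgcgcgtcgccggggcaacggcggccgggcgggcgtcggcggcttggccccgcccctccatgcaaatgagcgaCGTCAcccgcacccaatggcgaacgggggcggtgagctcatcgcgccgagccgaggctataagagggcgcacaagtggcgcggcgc
JUN: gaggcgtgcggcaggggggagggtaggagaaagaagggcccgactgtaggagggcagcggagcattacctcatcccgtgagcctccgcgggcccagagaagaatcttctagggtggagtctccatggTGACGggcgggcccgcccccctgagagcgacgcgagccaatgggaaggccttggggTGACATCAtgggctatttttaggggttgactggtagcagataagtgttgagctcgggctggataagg

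**Figure D2:**
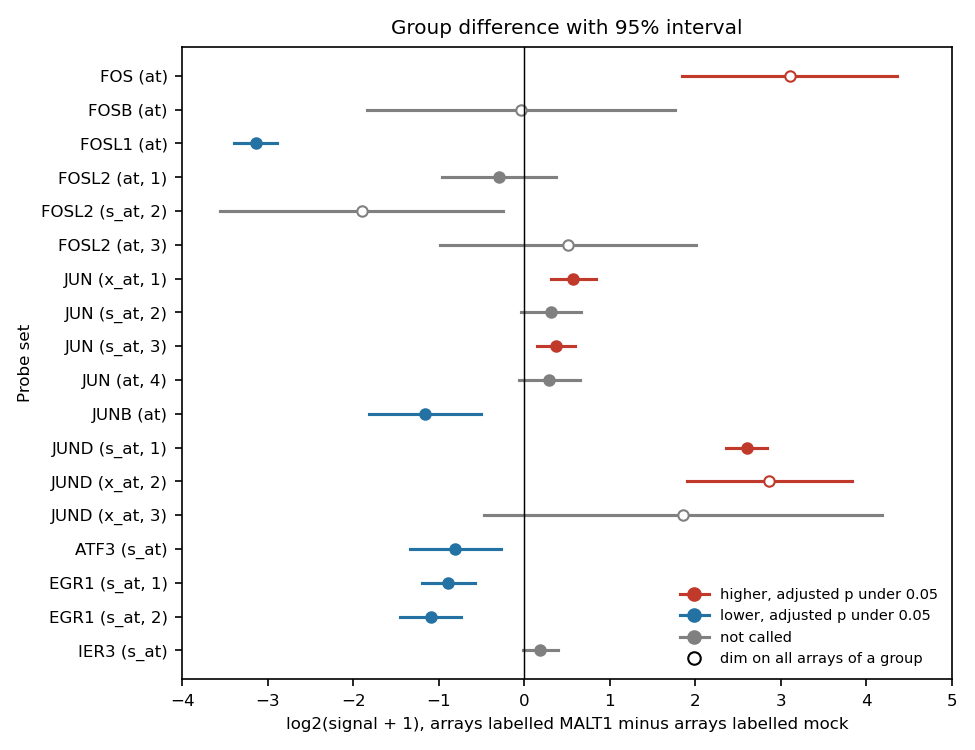
Difference in log2(signal + 1), arrays labelled MALT1 minus arrays labelled mock, for each probe set with its 95% interval; red is called higher, blue called lower, grey not called, and an open circle marks a probe set at or below 17.6 on all arrays of a group. FOSL1 at -3.14 and the brightest JUND probe set at 2.60 have narrow intervals on opposite sides of 0, while FOSB and the dim FOSL2 and JUND sets have wide ones.

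EGR1, a zinc finger factor induced by ERK through serum response factor, fell on both of its probe sets. The brighter read 265, 258 and 292 on the arrays labelled MALT1, against 493, 572 and 453 on the mock arrays. The dimmer read 62.6, 54.6 and 63.3, against 128, 150 and 112. On both, every array labelled MALT1 lay below every mock array. The log2 differences were -0.89 ± 0.12 SE (95% interval -1.20 to -0.58, adjusted p = 0.00405) and -1.09 ± 0.14 SE (95% interval -1.45 to -0.73, adjusted p = 0.00324), and both were called under all 12 alternatives. The 250 bases before the EGR1 start, at chr5:138465229-138465478 on the plus strand of GRCh38.p14, hold 2 CArG boxes, the core of the serum response element, which together with 2 TGACG elements are in capitals below.
EGR1: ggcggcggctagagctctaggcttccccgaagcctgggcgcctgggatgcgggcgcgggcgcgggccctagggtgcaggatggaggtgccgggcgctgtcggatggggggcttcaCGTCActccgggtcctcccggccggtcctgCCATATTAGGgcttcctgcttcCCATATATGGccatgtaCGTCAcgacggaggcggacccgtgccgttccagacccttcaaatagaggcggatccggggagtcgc

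ATF3, a stress-induced factor that pairs with JUN proteins, fell by less than 2-fold. It read 51.1, 61.3 and 86.6 on the arrays labelled MALT1, against 111, 110 and 121 on the mock arrays. The groups did not overlap, but MALT1 replicate 3 was closer to the mock arrays than the others (66.3 ± 18.2 against 114 ± 6.29). The log2 difference was -0.81 ± 0.21 SE, with a 95% interval of -1.34 to -0.27 (adjusted p = 0.0349). The call was kept without MALT1 replicate 3 (-1.01, adjusted p = 0.00737) and lost without any other single array (-0.83 to -0.64, adjusted p = 0.0749 to 0.103).

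IER3, an immediate early gene that protects cells from death and is also a target of NF-kappaB, read 7642, 7854 and 7685 on the arrays labelled MALT1, against 6474, 6748 and 7123 on the mock arrays. The groups did not overlap, yet the log2 difference was only 0.19 ± 0.08 SE and was not called (95% interval -0.02 to 0.40, adjusted p = 0.145). A rise or fall as large as those of FOSL1 or JUND lies outside that interval. With an intensity trend and robust variances the same difference passed (adjusted p = 0.0239), and after median centring it was 0.06.

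The windows before the start often held the TGACG element, both in members that rose and in members that fell. The promoter table held 8 of the 10 members, all but FOSL1 and IER3, with 2 starts for ATF3. Motifs were searched on both strands in the 250 bases before each start and compared with all 35116 windows in the table. The complete CRE was found in JUND alone, against 1.65% of all windows. The TGACG element, which the complete CRE contains, was found in FOS, FOSB, FOSL2, JUN, JUNB, JUND and EGR1, 7 of the 8 genes, against 21.2% of all windows. The windows of these 7 genes were 62.0% to 74.8% G and C, against a median of 58.0% over all windows. The ATF3 starts, without the element, had 49.2% and 44.8%. The part of base composition in these shares was not tested. The variant TGACATCA occurred in JUN and at 1 start of ATF3, against 2.37%. Within these 250 bases the CArG box occurred in EGR1 alone, against 1.16%. Bases further upstream, of FOS or any other member, were not searched, so a CArG box there would be missed. TATAAA was present in FOS, FOSB, JUNB and ATF3, against 10.7%, and lay 25 to 33 bases before the start in the first 3 of these. The canonical AP-1 site (TGAGTCA or TGACTCA), the kappaB site and the EGR site GCGGGGGCG were found in 0 of the 8 genes, against 4.2%, 9.96% and 4.72% of all windows. The GC box GGGCGG was in 6 of the 8 genes, against 42.6%. CCAAT was in 4 of the 8, against 32.0%. JUND, JUN and FOS, which rose, and JUNB and EGR1, which fell, all held the TGACG element, and these matches describe letters only.

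**Figure D3:**
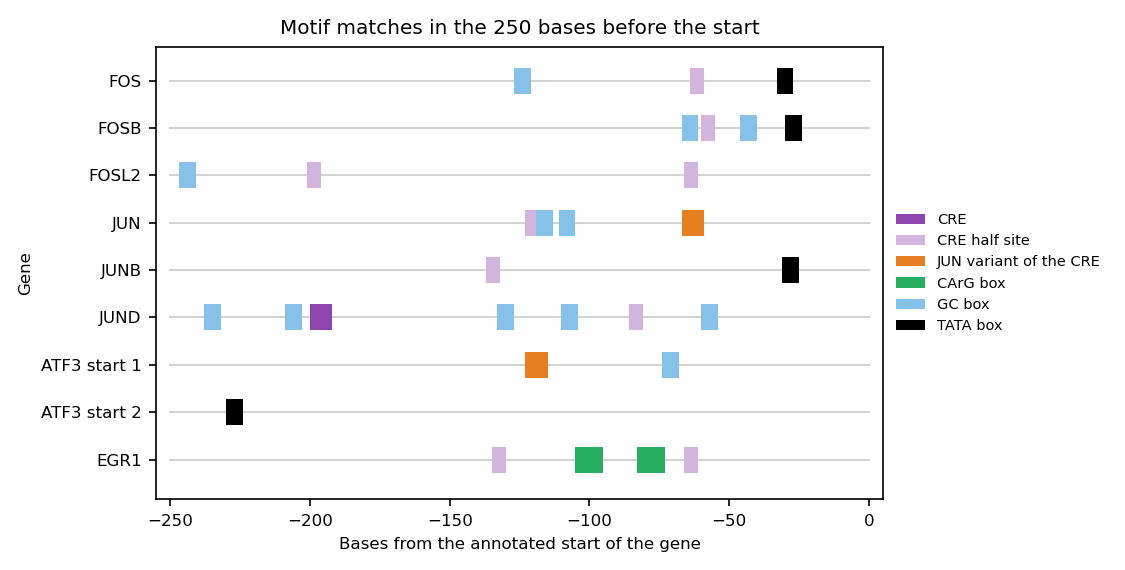
Positions of motif matches on either strand in the 250 bases before the annotated start of 8 members, with both starts of ATF3; each coloured block spans the matched bases. EGR1 has 2 CArG boxes, JUND the complete CRE, and FOS, FOSB and JUNB a TATA box within 33 bases of the start.

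The profiles most like those of the members were found by the distance between log2 signals over the 6 arrays, each centred on its own mean, among brighter probe sets of genes that are no members. For FOSL1 the nearest was EGFR, the receptor upstream of ERK, on 1 of its probe sets (455 ± 15.4 on the arrays labelled MALT1 against 4012 ± 172 on the mock arrays, distance 0.14), followed by TFCP2 (0.18) and TM4SF1 (0.20). For JUN they were SAP130 (0.07), MTIF2 (0.09) and BLTP2 (0.09), and for IER3 KPNB1 (0.04), MRM2 (0.05) and PSMC3 (0.06). For ATF3 they were ELF4 (0.11), CROT (0.21) and FKBP1A (0.24). All these distances share the same 6 arrays in 2 groups, so genes with a like group difference lie close.

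Among related bZIP factors, which can pair with FOS or JUN proteins or share their fold, most did not pass. Of 20 measured genes 3 were higher, 2 lower and 15 not called, with a median log2 difference of 0.03 (-0.10 after median centring), where 21.1% of all 11963 genes were called higher and 19.2% lower by their brightest probe set. BATF, a partner of JUN proteins best known in lymphocytes, read 289 ± 54.7 on the arrays labelled MALT1 against 5.48 ± 2.83 on the mock arrays, at least 16.2-fold higher (adjusted p = 0.00028). CREM, a CRE-binding factor, rose by a log2 difference of 2.04 (called on 3 of its 4 probe sets) and ATF5 by 1.12. MAFF, a small MAF protein, fell to 297 ± 27.2 on the arrays labelled MALT1, against 861 ± 31.5 on the mock arrays (log2 difference -1.54), and CREB3 fell (-0.62). ATF2, which pairs with JUN at the CRE variant, differed by -0.07 and was not called.

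The other immediate early genes were called in both directions. Of 26 measured, 11 were higher (42.3%, against 21.1% of all genes), 8 lower (30.8%, against 19.2%) and 7 not called, with a median log2 difference of 0.51, or 0.30 with dim genes at their bound. Without MALT1 replicate 3, 8 were higher and 8 lower. The orphan receptor NR4A2 read 192 ± 11.8 on the arrays labelled MALT1 against 19.7 ± 1.67 on the mock arrays (log2 difference 3.22, all 3 probe sets called), and the GTPase RHOB rose by 1.58. The kinase SGK1 fell to 278 ± 14.3 on the arrays labelled MALT1, against 1464 ± 32.3 on the mock arrays (log2 difference -2.40). The matricellular gene CCN1 (-2.72) and the HLH gene ID1 (-1.75) fell too. EGR3, a relative of EGR1 and chosen after its value was seen, was at least 4.10-fold higher (73.1 ± 13.1 against 9.51 ± 5.83), opposite to EGR1.

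Kinases and ternary complex factors that act on FOS, EGR1 and JUN were split. Of 26 measured, 7 were higher (26.9%, against 21.1% of all genes), 6 lower (23.1%, against 19.2%) and 13 not called, shares near those of all genes (median log2 difference 0.02). After median centring 4 were higher and 8 lower, with a median of -0.11, and without MALT1 replicate 3 the counts were 5 and 7. The ternary complex factor ELK3 fell to 467 ± 44.7 on the arrays labelled MALT1, against 1717 ± 134 on the mock arrays (log2 difference -1.88, called on 1 of 2 probe sets), and HRAS (-1.16) and the ERK-activated kinase RPS6KA3 (-1.09) fell too. MAPK3, which encodes ERK1, rose to 259 ± 14.8 on the arrays labelled MALT1, against 108 ± 2.22 on the mock arrays (log2 difference 1.25), and the p38 kinase MAPK13 rose by 1.10. Of the other p38 kinases measured, MAPK12 fell (-0.84) and MAPK11 was not called on its brightest probe set (-1.20). Of the 3 MAPK11 probe sets, 1 was called lower. Among the JUN kinases, MAPK8, which encodes JNK1, differed by 0.13 and MAPK10, which encodes JNK3, by -0.74, neither of them called. MAPK9, which encodes JNK2, rose by 0.31 (adjusted p = 0.0359 by limma).

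Genes with textbook AP-1 sites were mostly lower or not called. Of 24 measured, 3 were higher (12.5%, against 21.1% of all genes), 12 lower (where 19.2% of all genes were lower) and 9 not called, with a median log2 difference of -0.79, or -0.63 with dim genes at their bound, where the median of all genes was 0.08. The collagenase MMP13 fell to 224 ± 13.6 on the arrays labelled MALT1, against 1513 ± 81.6 on the mock arrays (log2 difference -2.75), and the stromelysin MMP10 fell too (-2.48). CD44, the hyaluronan receptor (-2.47), and GSTP1, a glutathione transferase (-2.93), also fell. NQO1, a quinone reductase with an element that overlaps an AP-1 site, rose to 12428 ± 899 on the arrays labelled MALT1, against 2491 ± 86.5 on the mock arrays (log2 difference 2.32). CCND1, which encodes cyclin D1, differed by -0.12 and was not called. The squamous markers above fell on the same arrays, and their part in this count was not tested.

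The genes of JUN and FOS turnover and their cofactors were also split: of 10 measured, 3 were higher (30.0%, against 21.1% of all genes), 4 lower (where 19.2% of all genes were lower) and 3 not called (median log2 difference -0.17). After median centring 1 was higher and 4 lower, and without MALT1 replicate 1, mock replicate 1 or mock replicate 3 the called genes numbered 4 in place of 7. ITCH, a ubiquitin ligase for JUN proteins, fell to 548 ± 22.2 on the arrays labelled MALT1, against 1644 ± 89.6 on the mock arrays (log2 difference -1.58). CUL4A and FBXW7, parts of other ligases for JUN, also fell (-0.77 and -0.65). The ligase genes did not all fall: DDB1, of the same ligase as CUL4A, rose (0.48), and DET1 was not called (-0.14). APEX1, which keeps FOS and JUN in their reduced DNA-binding form, and TAF7 rose by 0.51 and 0.42.

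**Figure D4:**
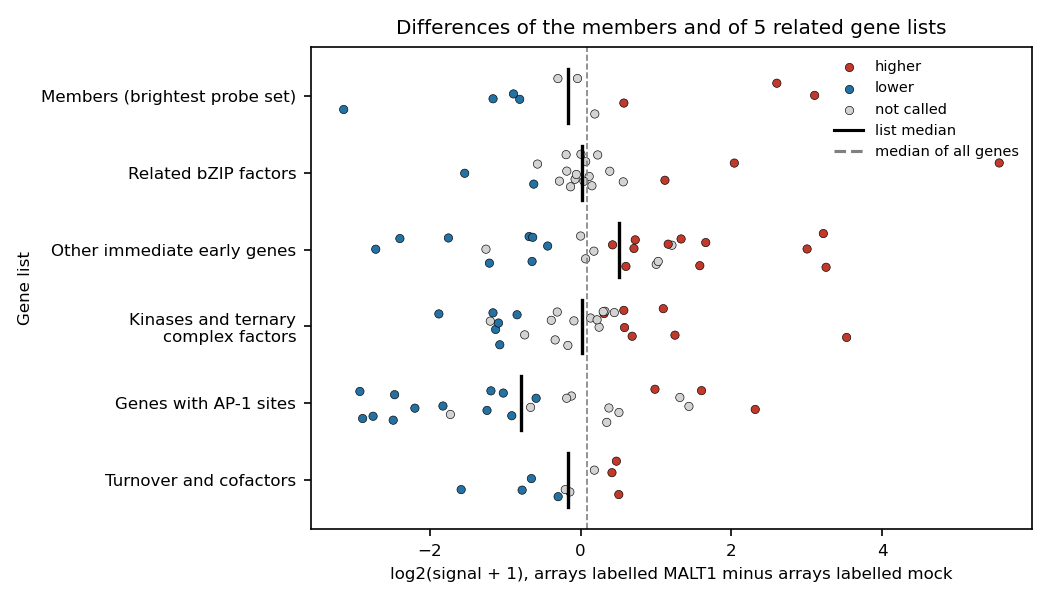
Difference in log2(signal + 1), arrays labelled MALT1 minus arrays labelled mock, for the 10 members and 5 related gene lists, each gene by its brightest probe set; red is called higher, blue called lower, grey not called, black bars are list medians and the dashed line is the median of all genes (0.08). The genes with AP-1 sites have the lowest median, -0.79, and among members measured in both groups the values run from -3.14 for FOSL1 to 2.60 for JUND; the point of FOS rests on dim mock signals.

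The members' differences kept their direction in most settings. Of 211 recalculated values of the 18 probe sets, 3 changed sign, all of them for the dim probe sets of FOSB and FOSL2. The filter on dim probe sets, the intensity trend with robust variances and the replicate block leave a log2 difference unchanged. Values from those settings are among the 211 and could not change sign.

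**Figure D5:**
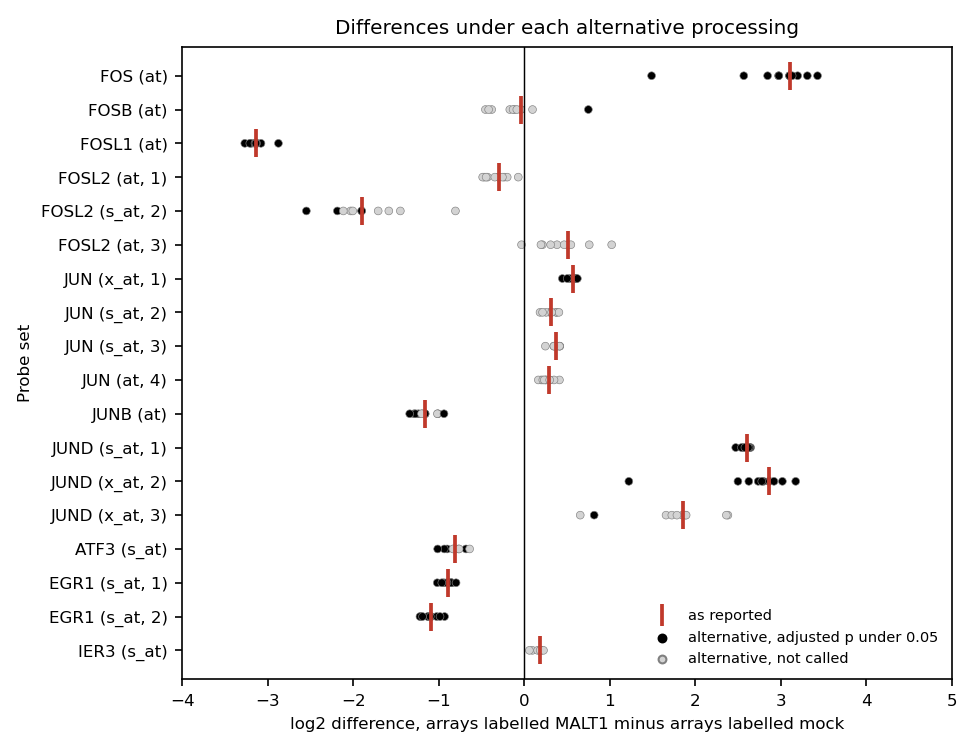
Difference in log2 signal, arrays labelled MALT1 minus arrays labelled mock, of each probe set as reported (red bar) and under each alternative processing (circles, black where called and grey where not). FOSL1, EGR1, FOS and the brightest JUND probe set are black throughout, whereas the circles of JUN (s_at, 3), JUNB and ATF3 include grey ones on the same side of 0.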

How the data were processed

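The authors deposited linear intensity values, 1 per probe set; per the labels' protocols, biotin-labelled RNA was hybridised to Affymetrix 3' arrays. From the values, each array had been scaled to a trimmed mean of about 500.2 (2% cut at each end). The sources used here name no summary software, and no detection calls were used. Of 22277 probe sets, 62 controls were left out and 22215 tested as log2(signal + 1), without a filter, by limma 3.58.1 in R 4.3.3 (lmFit, eBayes, group as the only term, all 6 arrays), two-sided, with Benjamini-Hochberg adjustment over all probe sets. Differences are MALT1 minus mock. The fit was tested on simulated data. Genes were named from probe sets with 1 symbol, updated through RefSeq gene IDs (19052 of 19064 matched, 11963 genes). List genes took their brightest probe set, and up to 5 with the smallest adjusted p were named. DDB1, DET1, the other metalloproteinases of the list and the other measured JUN and p38 kinases were added with their values known. Bounds divide the brighter group's geometric mean by the dim level of 17.6. Probe sets ending in s_at or x_at can bind several transcripts. The number of arrays limits precision. Same-numbered arrays were checked for shared deviations (correlations -0.003 to 0.061 over brighter probe sets, none above 0.1), so numbers were not taken as pairs. The members and lists were chosen with earlier results of these data known. List genes without a single-symbol probe set were not analysed here.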

Additional observations from a re-analysis of the deposited data

How the results depend on the processing

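Settings tried were 16 added to the signal in place of 1, quantile normalization, median centring, a filter on dim probe sets, an intensity trend with robust variances, the replicate number as a block, and leaving out each array. Of 211 recalculated member values, 185 kept direction and side of the threshold, 18 lost the call, 5 gained it with the direction kept and 3 changed sign. Among those 3, FOSB without mock replicate 1 also gained a call. With single arrays left out, FOSB ranged from -0.45 to 0.75 and the dimmest FOSL2 probe set from -0.032 to 1.02, and the count of member probe sets called lower was 3 to 5. With the replicate block, 3 member probe sets were called higher (FOS and 2 of JUND), and JUN and ATF3 lost their calls (adjusted p = 0.0564 to 0.0892), while the second FOSL2 probe set gained one (adjusted p = 0.0313), so that 5 were called lower; among the lists 8 kinases and ternary complex factors and 4 turnover genes were then called. The block, the filter on dim probe sets and the intensity trend left the log2 differences of the members as they were, and only the p-values changed. Same-numbered arrays had correlations of 0.061 or less over brighter probe sets, which does not tell whether a block suits a single probe set. The turnover list had 4 to 6 genes called with single arrays left out, and the bZIP list 8 with the trend. The cause of these changes was not tested. Filtering left no value for 5 dim member probe sets, whose signals lie at or near the level of the control probes and limit what can be said of FOSB and of the dim FOSL2 and JUND sets.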
